A study of Caenorhabditis elegans with 15 samples.

Results

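The ttr genes encode the transthyretin-related proteins of C. elegans, and 59 of the 46906 genes in the expression table carry a ttr name with a number. All genes with such a name were taken, whether or not they responded to treatment. The RNA came from whole wild-type N2 Bristol worms fed E. coli OP50 and collected on day 12 of adulthood. From the L4 stage the worms were kept at 22 °C with either an extract of Cuscuta chinensis seeds at 30 µg/mL, an extract of Eucommia ulmoides bark at 30 µg/mL, or the solvent alone, 0.05% DMSO. All 3 groups received 100 µM FUdR, which blocks reproduction, and 2 mg/mL carbenicillin, and each group had 5 libraries made from tubes of 3000 to 4000 worms. The comparisons ask which transcripts each plant extract altered in aged worms, and whether the extracts differed.

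Transthyretin-related proteins are a large nematode family of small, mostly secreted proteins that share a fold with vertebrate transthyretin, the carrier of thyroid hormone and retinol-binding protein. Most members have no assigned function. TTR-52 is a secreted protein that binds phosphatidylserine on dying cells and bridges them to the engulfment receptor CED-1, TTR-11 is a related phosphatidylserine-binding member, and TTR-33 protects dopaminergic neurons from oxidative damage.

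Expression was given as FPKM, the fragments of a gene per kilobase of transcript, scaled to the fragments of the library. As inferred from the FPKM, the libraries held 37920765 to 87238546 fragments. A gene was tested when it reached 1 FPKM in at least 5 of the 15 libraries, which left 13743 genes and 54 of the 59 ttr genes. All 54 would have passed without the C. chinensis libraries, and 53 without the DMSO libraries. Fold changes are differences of group means on the scale log2(scaled FPKM + 0.5), fitted with limma, and a gene was called when its Benjamini-Hochberg adjusted p was below 0.05 and its change exceeded 1.5-fold in either direction. Since the RNA came from whole animals, fewer cells of a type and less RNA per cell cannot be told apart.

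The ttr family spanned a wide range of levels in control worms. In DMSO, 2 members averaged over 1000 FPKM, 4 lay between 100 and 1000, 24 between 10 and 100, 23 between 1 and 10, and 6 at 1 FPKM or less. Summed over the 59 genes, the unscaled FPKM was 5313 ± 321 in DMSO (SD, n = 5), 10540 ± 1858 with C. chinensis and 6040 ± 783 with E. ulmoides. The C. chinensis libraries ranged from 8388 to 12990 and all stood above the DMSO libraries, which ranged from 4828 to 5652, while the E. ulmoides libraries, from 5175 to 6956, overlapped with DMSO. The unscaled sum was therefore 1.98-fold that of DMSO with C. chinensis and 1.14-fold with E. ulmoides. The scale factors that divide the FPKM were 0.94 to 1.03 in DMSO, 1.06 to 1.16 with C. chinensis and 0.87 to 0.91 with E. ulmoides. In scaled FPKM the rise is thus smaller with C. chinensis and larger with E. ulmoides, and both extracts stand above all DMSO libraries. The 3 most abundant members, ttr-51, ttr-2 and ttr-15, made up 71.8% ± 1.81 of the summed FPKM in DMSO, 65.3% ± 2.32 with C. chinensis and 70.9% ± 0.68 with E. ulmoides (SD, n = 5).

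With C. chinensis, 34 of the 54 tested ttr genes were called higher than in DMSO (63.0%), against 16.9% of all genes tested, and none was called lower, against 3.47% of all genes. Under the adjusted p alone, with no fold limit, 39 ttr genes were higher and 3 lower, against 30.2% and 37.2% of all genes, and 43 had an unadjusted p under 0.05 (70.1% of all genes did). The median log2 fold change of the 54 was 0.80, compared with -0.09 over all genes tested. Of the 54, 21 rose more than 2-fold, a limit for which no share of all genes is given here. In 32 of them (59.3%, against 23.1% of all genes) every C. chinensis library stood above every DMSO library in scaled FPKM. Without the scaling between libraries, the median of all genes moved from -0.09 to 0.06 and that of the ttr genes to 0.96, so the gap between them was 0.89 with scaling and 0.90 without it. The share of higher calls among all called genes was 83.0%, and it was 96.2% without scaling and 65.0% after quantile normalization, whereas no ttr gene was called lower under any of these scalings.

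**Figure D1:**
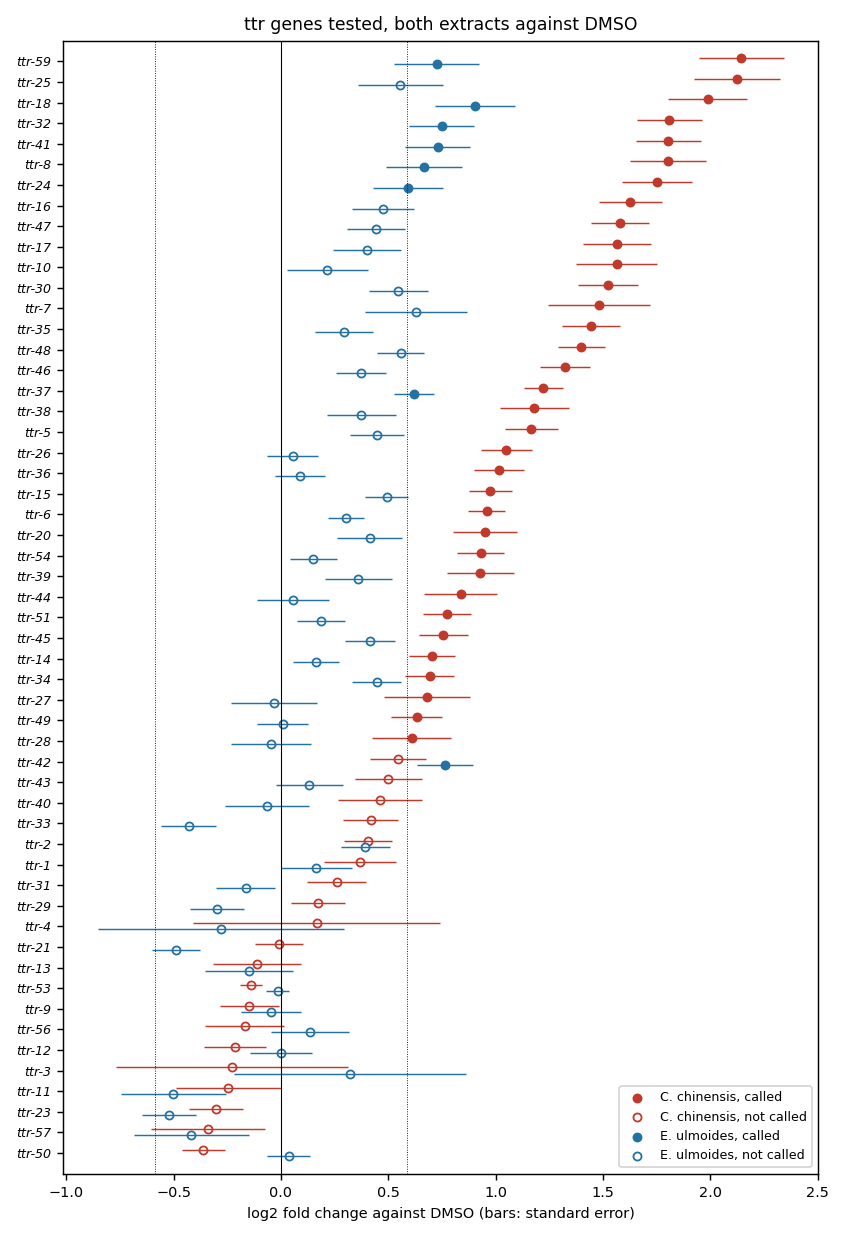
Log2 fold change against DMSO of each tested ttr gene (x axis; bars are standard errors) for C. chinensis (red) and E. ulmoides (blue), with filled points for called genes and dotted lines at 1.5-fold. The red points run from -0.36 for ttr-50 to 2.14 for ttr-59, and 34 of them are filled, against 8 of the blue points.

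The strongest response was that of ttr-59, on chromosome X from 7329818 to 7330669 (plus strand, WBcel235). ttr-59 was at 3.49, 8.75, 8.52, 8.25 and 6.36 FPKM in the 5 DMSO libraries, at 38.3, 30.1, 50.7, 23.2 and 39.6 with C. chinensis, and at 11, 11.01, 10.2, 10.1 and 9.59 with E. ulmoides. Every extract library exceeded every DMSO library, and the C. chinensis libraries also exceeded all those of E. ulmoides. The log2 fold change with C. chinensis was 2.14 ± 0.20 (SE, adjusted p = 3.08e-07). Its neighbour ttr-30 rose by 1.52 ± 0.14.

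The ttr-24, ttr-25 and ttr-26 genes lie side by side on chromosome V between positions 18555387 and 18560288. ttr-25 was at 13.6, 28.1, 26.5, 26.2 and 16.2 FPKM in DMSO, at 104, 94.1, 114.6, 78.5 and 145 with C. chinensis, and at 34.4, 20.4, 25.2, 40.0 and 25.8 with E. ulmoides. The C. chinensis values cleared the others completely (log2 fold change 2.12 ± 0.20, adjusted p = 3.68e-07), whereas the DMSO and E. ulmoides values overlapped. ttr-24 was at 21.7, 42.4, 35.1, 31.8 and 24.2 FPKM in DMSO, at 97.1, 114, 128, 93.7 and 148 with C. chinensis, and at 48.7, 39.4, 30.7, 49.9 and 40.2 with E. ulmoides. It likewise rose without overlap with C. chinensis (1.75 ± 0.16, adjusted p = 3.08e-07). ttr-26 changed by 1.05 ± 0.12.

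On chromosome II, 2 members were found, and both were called higher. ttr-18, from 11485510 to 11486748 on the minus strand, was at 19.3, 47.2, 29.4, 24.1 and 23.1 FPKM in DMSO, at 129, 105, 167, 89.8 and 134 with C. chinensis, and at 55.4, 48.9, 47.7, 35.6 and 46.5 with E. ulmoides. DMSO replicate 2 lay above 2 of the E. ulmoides libraries, but no DMSO value reached those of C. chinensis (1.99 ± 0.19, adjusted p = 3.24e-07). ttr-41, from 4727328 to 4727869 on the minus strand, was at 19.1, 33.5, 31.03, 28.6 and 24.4 FPKM in DMSO, at 102, 97.1, 126, 82.0 and 130 with C. chinensis, and at 47.6, 47.7, 30.6, 46.3 and 33.6 with E. ulmoides. Its rise with C. chinensis was 1.80 ± 0.15 (adjusted p = 1.64e-07), again without overlap.

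The neighbours ttr-8 and ttr-32 on chromosome III, between 7564500 and 7567523, responded to C. chinensis by nearly the same amount. ttr-32 was at 10.4, 18.3, 9.83, 11.2 and 9.57 FPKM in DMSO, at 42.3, 40.8, 61.5, 38.9 and 52.3 with C. chinensis, and at 22.2, 15.4, 19.9, 15.4 and 16.8 with E. ulmoides. DMSO replicate 2 stood apart from the other 4 DMSO libraries and exceeded 3 E. ulmoides libraries, but lay below all C. chinensis libraries (1.81 ± 0.15, adjusted p = 1.64e-07). ttr-8 was at 2.21, 4.58, 4.30, 2.95 and 2.27 FPKM in DMSO, at 12.9, 10.4, 18.01, 10.9 and 17.3 with C. chinensis, and at 5.34, 4.53, 5.58, 3.70 and 4.73 with E. ulmoides. Its change with C. chinensis was 1.80 ± 0.18 (adjusted p = 4.96e-07). Both genes overlap another gene on the opposite strand, lgc-12 for ttr-8 and R13A5.7 for ttr-32. The library kit does not mark strand, so fragments from such pairs cannot be told apart.

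The adjacent genes ttr-16 and ttr-17 lie on the minus strand of chromosome IV between 11063530 and 11067026. ttr-16 was at 138, 269, 237, 208 and 176 FPKM in DMSO, at 669, 666, 779, 532 and 858 with C. chinensis, and at 283, 229, 215, 306 and 235.3 with E. ulmoides. Each C. chinensis library exceeded each of the other 10 libraries (1.63 ± 0.15 against DMSO, adjusted p = 2.61e-07). ttr-17 was at 36.8, 67.3, 62.0, 59.3 and 47.9 FPKM in DMSO, at 142.4, 173, 236, 143 and 213 with C. chinensis, and at 72.2, 55.6, 53.3, 80.4 and 60.9 with E. ulmoides. It showed the same separation (1.56 ± 0.16, adjusted p = 6.51e-07). ttr-47, on chromosome V, was at 42.5, 66.8, 58.96, 58.5 and 49.7 FPKM in DMSO, at 165, 160, 215, 152 and 241 with C. chinensis, and at 81.1, 65.5, 58.3, 80.7 and 54.3 with E. ulmoides. Its log2 fold change with C. chinensis was 1.58 ± 0.13 (adjusted p = 1.84e-07). ttr-16 overlaps lin-3 and ttr-47 overlaps H14N18.4, both on the opposite strand.

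**Figure D2:**
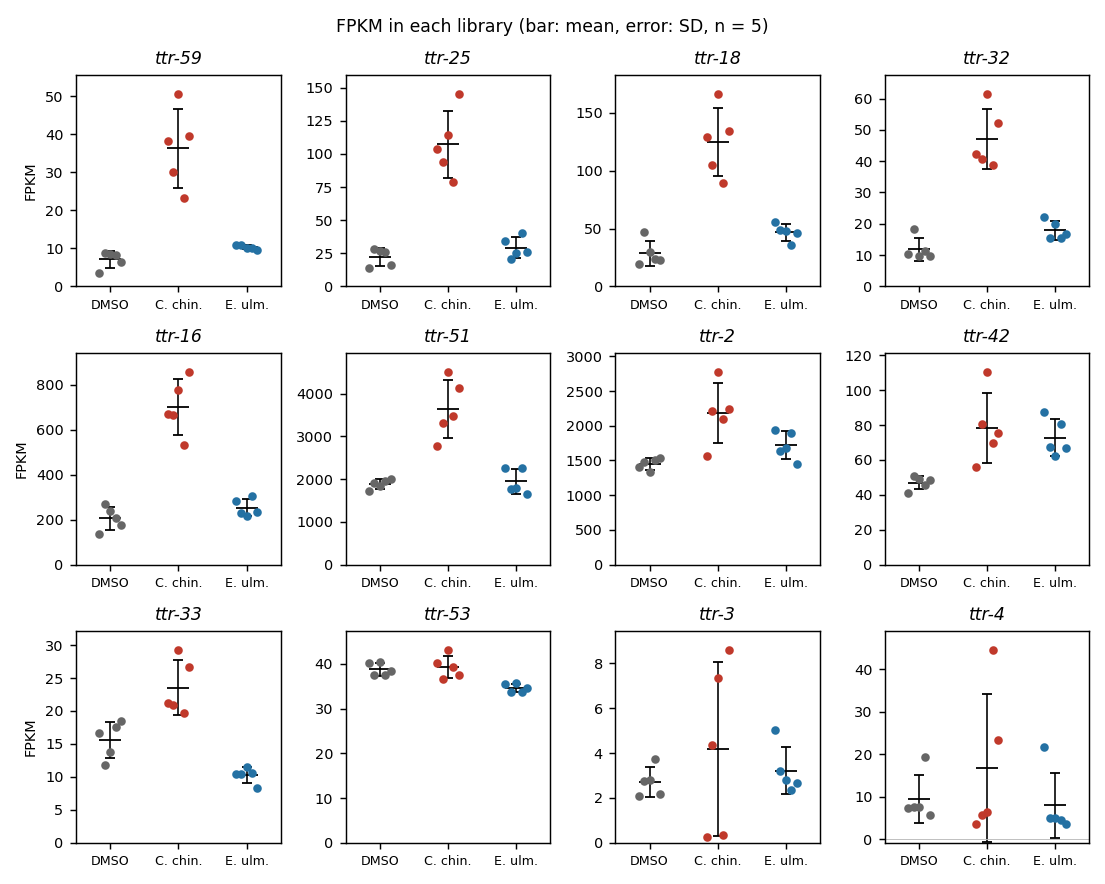
FPKM (y axis) of 12 ttr genes in each of the 15 libraries, with points for libraries, the horizontal bar for the mean and the error bar for the SD of 5 libraries. The 5 C. chinensis libraries lie above all DMSO libraries for ttr-59, ttr-25, ttr-18, ttr-32, ttr-16 and ttr-51, overlap with them for ttr-53, and spread from 0.245 to 8.58 FPKM for ttr-3.

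The most abundant members also rose with C. chinensis, by smaller amounts. ttr-51, on chromosome IV, was at 1718, 1919, 1831, 1951 and 1994 FPKM in DMSO, at 2772, 3320, 4507, 3468 and 4136 with C. chinensis, and at 2266, 1758, 1795, 2262 and 1647 with E. ulmoides. In these unscaled values all C. chinensis libraries exceeded all others, whereas in scaled FPKM C. chinensis and E. ulmoides overlapped and C. chinensis and DMSO did not (0.77 ± 0.11, adjusted p = 1.76e-05). ttr-45, its neighbour, was at 322, 380, 327, 365 and 357 FPKM in DMSO, at 491, 618, 868, 617 and 767 with C. chinensis, and at 506, 403, 405, 444 and 357 with E. ulmoides. The DMSO and C. chinensis values did not overlap (0.76 ± 0.12, adjusted p = 2.92e-05). ttr-15, on chromosome III, was at 436, 547, 489, 507 and 433 FPKM in DMSO, at 872, 1028, 1310, 932 and 1187 with C. chinensis, and at 705, 588, 546, 703 and 526 with E. ulmoides. It rose by 0.97 ± 0.10 (adjusted p = 7.43e-07), again without overlap.

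ttr-2, the second most abundant member, did not reach the 1.5-fold limit. It was at 1403, 1471, 1334, 1506 and 1535 FPKM in DMSO, at 1567, 2220, 2775, 2096 and 2241 with C. chinensis, and at 1942, 1637, 1685, 1902 and 1456 with E. ulmoides. The log2 fold change was 0.41 ± 0.11 with C. chinensis (adjusted p = 0.00408) and 0.39 ± 0.11 with E. ulmoides (adjusted p = 0.051). ttr-2 was the only one of the 6 members above 100 FPKM in DMSO that was not called with C. chinensis. The other 5 were called, against 5.58% of all genes tested at that level. Of the 24 members between 10 and 100 FPKM, 16 were called higher, against 8.73% of all genes, as were 12 of the 23 between 1 and 10 FPKM, against 24.4%.

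Among the remaining called members, ttr-10 (1.56), ttr-7 (1.48), ttr-35 (1.44), ttr-48 (1.40), ttr-46 (1.32), ttr-37 (1.22), ttr-38 (1.18), ttr-5 (1.17) and ttr-36 (1.02) had log2 fold changes above 1 with C. chinensis. A further group changed by less than 2-fold and was also called, namely ttr-6 (0.96), ttr-20 (0.95), ttr-54 (0.93), ttr-39 (0.93), ttr-44 (0.84), ttr-14 (0.70), ttr-34 (0.69), ttr-27 (0.68), ttr-49 (0.63) and ttr-28 (0.61). The groups overlapped in scaled FPKM only for ttr-27 and ttr-44 among the 34. The calls of ttr-27, ttr-28 and ttr-49 lay close to the fold limit and were lost without some single libraries, while the adjusted p stayed below 0.05. ttr-27 fell short of 1.5-fold without C. chinensis replicate 3 (0.58), ttr-28 without C. chinensis replicate 5 (0.51) or DMSO replicate 1 (0.52), and ttr-49 without C. chinensis replicate 3 (0.52) or DMSO replicate 3 (0.58). The other 31 calls held with each library left out in turn. After quantile normalization ttr-27 (0.40), ttr-28 (0.32), ttr-49 (0.37) and ttr-44 (0.57) were no longer called, and neither was ttr-44 in the exact Wilcoxon test (adjusted p = 0.051), ttr-27 with the code number block (0.55), or ttr-28 (0.49) and ttr-49 (0.58) with a pseudocount of 1.

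The same libraries were often the highest or lowest of their group for the 34 called members. C. chinensis replicate 3 had the highest scaled FPKM of its group for 19 of them and replicate 5 for the other 15, against 25.1% and 20.4% of all genes tested. In DMSO, replicate 1 was the lowest for 26 of the 34 and replicate 2 the highest for 19, against 25.9% and 15.7% of all genes. E. ulmoides replicate 1 was the highest of its group for 19, against 20.2% of all genes.

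**Figure D3:**
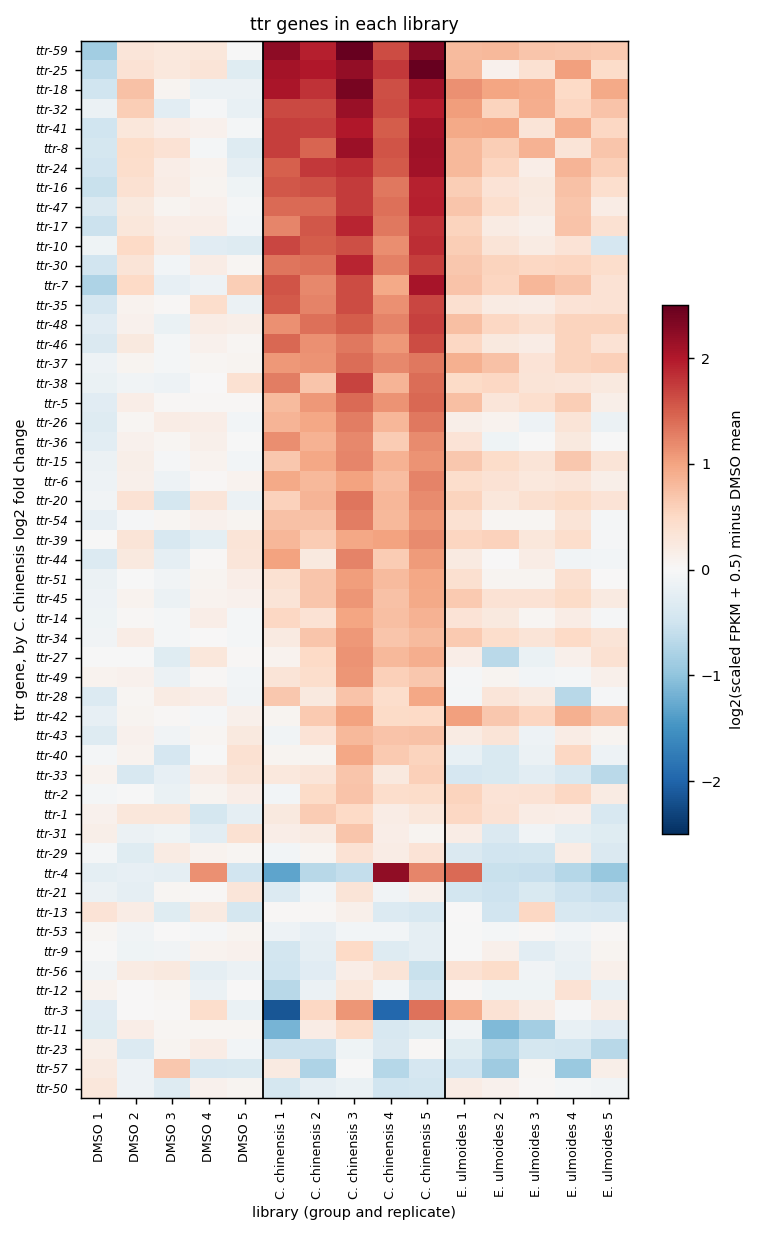
Deviation of log2(scaled FPKM + 0.5) from the DMSO mean (colour, red for higher) for the 54 tested ttr genes (rows, ordered by their change with C. chinensis) in the 15 libraries (columns). The C. chinensis columns are red for the upper rows down to ttr-49, the E. ulmoides columns are weaker, and ttr-3 and ttr-4 differ strongly between libraries of 1 group.

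Not every ttr gene rose. The 20 tested members that were not called with C. chinensis included 9 positive and 11 negative changes, and ttr-53, ttr-23 and ttr-50 were lower at an adjusted p below 0.05 without reaching 1.5-fold. ttr-50 was at 25.3 to 37.8 FPKM (median 30.4) in DMSO and 22.97 to 31.9 (median 25.4) with C. chinensis, a log2 fold change of -0.36 ± 0.10 (adjusted p = 0.00447). ttr-23 was at 14.6 to 20.4 FPKM in DMSO and 13.5 to 20.7 with C. chinensis (-0.30 ± 0.12, adjusted p = 0.0392). The ranges of DMSO and C. chinensis overlapped for both genes. With E. ulmoides ttr-23 was at 9.535 to 13.3 FPKM (-0.52 ± 0.12 against DMSO, adjusted p = 0.0272, under the fold limit). In scaled FPKM the DMSO and E. ulmoides libraries overlapped for ttr-23. ttr-42 (0.54), ttr-43 (0.50) and ttr-40 (0.46) were higher at an adjusted p below 0.05 but short of 1.5-fold. The fitted values of ttr-1 (0.37 ± 0.17), ttr-31 (0.26 ± 0.14), ttr-29 (0.17 ± 0.13), ttr-56 (-0.17 ± 0.18), ttr-12 (-0.21 ± 0.14), ttr-3 (-0.23 ± 0.54) and ttr-57 (-0.34 ± 0.27) did not pass the test, with adjusted p from 0.0588 to 0.721.

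The members with a change nearest to 0 were ttr-21, ttr-13, ttr-53, ttr-9 and ttr-4. ttr-53, whose neighbour ttr-54 rose, was at 40.2, 37.5, 40.4, 37.5 and 38.4 FPKM in DMSO, at 40.1, 36.6, 43.0, 39.4 and 37.5 with C. chinensis, and at 35.4, 33.8, 35.7, 33.7 and 34.5 with E. ulmoides. The DMSO and C. chinensis values overlapped, and its log2 fold change of -0.14 ± 0.05 (adjusted p = 0.0262) turned to 0.02 without scaling between libraries, 0.03 after quantile normalization and 0.01 with only genes of a mean FPKM of at least 5. ttr-21 was at 14.4, 13.9, 16.8, 15.9 and 18.4 FPKM in DMSO, at 13.9, 16.4, 23.2, 15.9 and 19.6 with C. chinensis, and at 10.4, 9.79, 10.9, 9.97 and 9.18 with E. ulmoides. Here the E. ulmoides libraries lay below all others (-0.49 ± 0.11 against DMSO, adjusted p = 0.0224, under the fold limit), and the change with C. chinensis was -0.01 ± 0.11.

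ttr-9 was at 6.77, 6.40, 6.53, 7.15 and 6.86 FPKM in DMSO, at 5.38, 6.26, 11.3, 5.62 and 6.45 with C. chinensis, and at 6.15, 6.59, 5.01, 5.57 and 6.17 with E. ulmoides. Only C. chinensis replicate 3 stood apart from the rest. ttr-13 was at 2.10, 1.87, 1.19, 1.85 and 0.94 FPKM in DMSO, at 1.79, 1.72, 2.01, 1.18 and 1.17 with C. chinensis, and at 1.43, 0.863, 2.21, 0.965 and 0.90 with E. ulmoides, with full overlap of the 3 groups. The log2 fold changes with C. chinensis were -0.15 ± 0.14 for ttr-9 and -0.11 ± 0.21 for ttr-13.

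The genes ttr-3 and ttr-4 were erratic between libraries of the same treatment. ttr-4, annotated as a pseudogene and overlapped by a gene on the opposite strand, was at 7.25, 7.66, 7.56, 19.4 and 5.72 FPKM in DMSO, at 3.57, 5.66, 6.44, 44.6 and 23.4 with C. chinensis, and at 21.7, 5.07, 5.11, 4.62 and 3.69 with E. ulmoides. Its log2 fold change with C. chinensis, 0.17 ± 0.57, turned negative without C. chinensis replicate 4 (-0.36). ttr-3 was at 2.11, 2.74, 2.80, 3.73 and 2.17 FPKM in DMSO and at 0.245, 4.38, 7.35, 0.328 and 8.58 with C. chinensis. C. chinensis replicates 1 and 4, with 6 and 15 fragments, lay far below every DMSO library while the other 3 lay above all of them.

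None of the 3 members with a described role was called with C. chinensis against DMSO. ttr-52 was too low to be tested, at 0.404, 0.0279, 0.549, 0.122 and 0.401 FPKM in DMSO, at 0.37, 0.0993, 0.427, 0.255 and 0.451 with C. chinensis, and at 0.106, 0.292, 0.121, 0.0556 and 0.311 with E. ulmoides. These values rest on 1 to 10 fragments per library, so a difference was not detectable at this depth. ttr-11 was at 4.60, 6.71, 6.21, 5.90 and 5.71 FPKM in DMSO, at 2.62, 7.27, 9.34, 4.57 and 5.21 with C. chinensis, and at 4.94, 2.18, 2.72, 4.61 and 4.08 with E. ulmoides. The C. chinensis values spread around those of DMSO (-0.24 ± 0.25, adjusted p = 0.388), and the change with E. ulmoides was -0.50 ± 0.25 (adjusted p = 0.23).

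ttr-33 was at 16.7, 11.8, 13.8, 17.5 and 18.4 FPKM in DMSO, at 21.2, 20.9, 29.2, 19.7 and 26.6 with C. chinensis, and at 10.4, 10.5, 11.5, 10.6 and 8.35 with E. ulmoides. In these unscaled values C. chinensis was the highest group and E. ulmoides the lowest, with no overlap. In scaled FPKM both extract groups overlapped with DMSO, and C. chinensis stood above E. ulmoides. Against DMSO the log2 fold change was 0.42 ± 0.13 with C. chinensis (adjusted p = 0.00826, under the fold limit) and -0.43 ± 0.13 with E. ulmoides (adjusted p = 0.0594). Between the extracts it was 0.85 ± 0.13 (adjusted p = 1.9e-05), and ttr-33 was called higher with C. chinensis than with E. ulmoides. It overlaps mig-6 on the opposite strand and txt-5 on the same strand.

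The other 4 untested members stayed low in every library. ttr-19 had at most 0.21 FPKM and was listed at 0 in 9 of the 15 libraries, while the highest values of ttr-22, ttr-55 and ttr-58 were 1.20, 0.874 and 0.96 FPKM.

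With E. ulmoides, 8 of the 54 tested ttr genes were called higher than in DMSO (14.8%), against 1.11% of all genes tested, and none was called lower, against 0.109%. With no fold limit 15 were higher, against 4.68% of all genes, and 2, ttr-21 and ttr-23, were lower, against 0.335%, and 30 had an unadjusted p under 0.05, against 23.3% of all genes. The median log2 fold change was 0.26, compared with 0.07 over all genes. Without E. ulmoides replicate 1 these medians were 0.08 and 0.01, so the gap between them fell from 0.19 to 0.07, and with the code number of the labels as a block the gap was 0.09. E. ulmoides replicate 1 (code number 1) and DMSO replicate 3 (code number 8) share their code number with no other library. That block therefore takes both out of the comparison and is not separate from leaving out E. ulmoides replicate 1. In 11 members (20.4%, against 7.86% of all genes) every E. ulmoides library stood above every DMSO library in scaled FPKM, and in 1, ttr-21, every library stood below (1.06% of all genes). The number of calls was sensitive to the processing, for ttr genes and for all genes. The ttr count was 1 without scaling between libraries, 0 after quantile normalization and 5 in the voom fit on recovered fragments, where the higher calls over all genes went from 153 to 20, 32 and 139. It was 1 to 8 with a library left out. It fell to 5 or fewer without DMSO replicate 1, 2 or 3, C. chinensis replicate 2, 3, 4 or 5, or E. ulmoides replicate 1, 2 or 5, and was 1 without DMSO replicate 3, C. chinensis replicate 2 or E. ulmoides replicate 1, where 20, 36 and 19 of all genes were called higher.

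**Figure D4:**
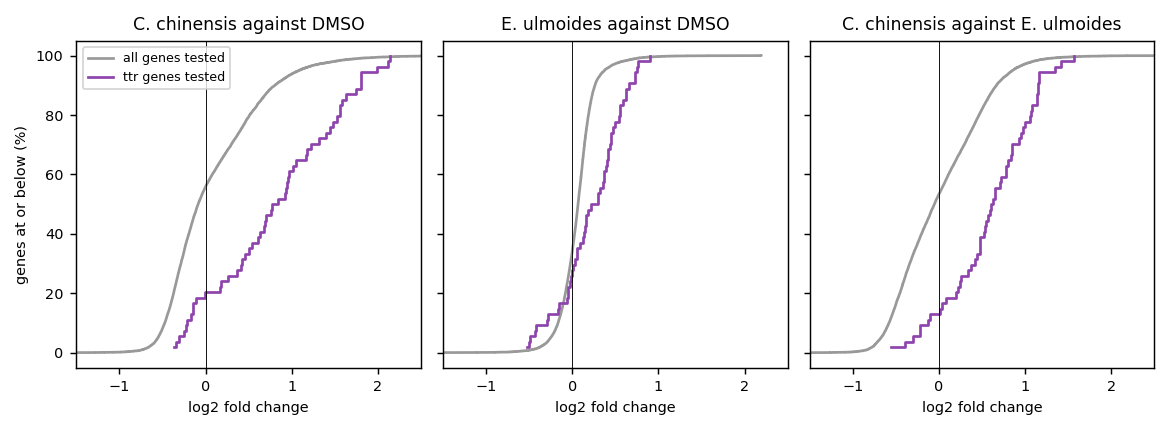
Cumulative share of genes (y axis, %) at or below each log2 fold change (x axis) for the 54 tested ttr genes (purple) and all 13743 genes tested (grey) in the 3 comparisons. The purple line lies to the right of the grey one with C. chinensis (medians 0.80 and -0.09) and against E. ulmoides (0.61 and -0.05), and less so with E. ulmoides against DMSO (0.26 and 0.07).

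The largest changes with E. ulmoides were those of ttr-18 (0.90 ± 0.19, adjusted p = 0.0144), ttr-42 (0.77 ± 0.13, adjusted p = 0.00757), ttr-32 (0.75 ± 0.15, adjusted p = 0.014), ttr-41 (0.73 ± 0.15, adjusted p = 0.0154) and ttr-59 (0.73 ± 0.20, adjusted p = 0.0445). ttr-8 (0.66 ± 0.18, adjusted p = 0.0412), ttr-37 (0.62 ± 0.09, adjusted p = 0.00539) and ttr-24 (0.59 ± 0.16, adjusted p = 0.045) were also called. Of these, only ttr-42 kept its call with each library left out in turn. ttr-37 was at 6.38, 7.53, 7.02, 7.14 and 6.96 FPKM in DMSO, at 17.4, 17.2, 22.3, 17.7 and 20.7 with C. chinensis, and at 12.2, 10.6, 8.22, 9.59 and 9.503 with E. ulmoides, so that the 3 groups were fully separated. Its change with C. chinensis was 1.22 ± 0.09.

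ttr-42 was at 40.9, 50.7, 49.4, 45.7 and 48.6 FPKM in DMSO, at 56.0, 80.9, 110, 69.8 and 75.7 with C. chinensis, and at 87.7, 67.2, 62.2, 80.4 and 66.7 with E. ulmoides. In these unscaled values both extract groups lay above all DMSO libraries and overlapped with each other. In scaled FPKM E. ulmoides stood above all DMSO libraries, whereas C. chinensis overlapped with DMSO. The log2 fold change with C. chinensis was 0.54 ± 0.13 (adjusted p = 0.00141), just under the fold limit, and it passed the limit without scaling (0.70), after quantile normalization (0.75) and without C. chinensis replicate 1 (0.67). The extracts differed by -0.22 ± 0.13 (C. chinensis minus E. ulmoides, adjusted p = 0.142). ttr-42 overlaps H01M10.1 on the opposite strand.

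In the direct comparison of the extracts, 29 of the 54 ttr genes were called higher with C. chinensis than with E. ulmoides (53.7%), against 13.2% of all genes tested, and none was called lower, against 9.51%. The median difference was 0.61 on the log2 scale, compared with -0.05 over all genes. In 30 members (55.6%, against 20.8% of all genes) every C. chinensis library stood above every E. ulmoides library, and in 1, ttr-50, every library stood below (28.9%). With no fold limit 39 were higher and 2 lower, against 29.4% and 37.8% of all genes, and 42 had an unadjusted p under 0.05, against 69.7%. The largest differences were those of ttr-25 (1.57 ± 0.20), ttr-59 (1.42 ± 0.20) and ttr-10 (1.35 ± 0.19). The members called against DMSO but not between the extracts were 6, namely ttr-39 (0.57 ± 0.16), ttr-14 (0.54 ± 0.11), ttr-20 (0.54 ± 0.15), ttr-15 (0.48 ± 0.10), ttr-45 (0.34 ± 0.12) and ttr-34 (0.25 ± 0.12). All of these but ttr-34 (adjusted p = 0.0668) had an adjusted p below 0.05 and missed only the fold limit, and ttr-33 was called between the extracts alone. For ttr-50 the difference between the extracts was negative (-0.40 ± 0.10, adjusted p = 0.00214) but short of the fold limit.

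The position of the ttr genes was taken from the Ensembl 115 annotation of WBcel235. The 59 genes lie on all 6 chromosomes, with 22 on V, 12 on X, 10 each on III and IV, 3 on I and 2 on II. With C. chinensis, 10 of 12 tested members on X were called higher, where 31.9% of all tested genes were higher, and 10 of 20 on V, where 25.8% were. On III and IV, 5 of 9 and 7 of 10 were called, against 9.75% and 15.4% of all tested genes, both members on II were called against 13.7%, and the single tested member on I, ttr-56, was not called against 8.14%. Another ttr gene lay within 5 kb of 29 members, which formed 12 groups. In these groups 17 of 27 tested members were called higher, as were 17 of the 27 tested members that lay alone. Of the 59 members, 18 overlap another annotated gene, among them ttr-51 with JC8.7 and ttr-55 with ttr-56. For 4 members, ttr-11, ttr-12, ttr-13 and ttr-21, the transcript length inferred from the FPKM differed more than 1.5-fold from the annotated exon length, so their level relative to other genes depends on the gene model. How the counting treated fragments that match more than 1 ttr gene is not given in the sources used here, so values of closely similar members are uncertain to that extent.

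Neighbours responded alike in some groups and differently in others. All tested members were called in 6 groups, namely ttr-8 with ttr-32, ttr-16 with ttr-17, ttr-51 with ttr-45, ttr-24 with ttr-25 and ttr-26, ttr-36 with ttr-35, and ttr-59 with ttr-30. None was called in the group of ttr-3, ttr-2 and ttr-1, that of ttr-11, ttr-57 and ttr-12, and that of ttr-55, ttr-56 and ttr-58, of which ttr-56 alone was tested. In the other 3 groups, ttr-54 was called and ttr-53 was not, ttr-49 was called and ttr-40 was not, and ttr-27 and ttr-28 were called and ttr-29 was not.

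**Figure D5:**
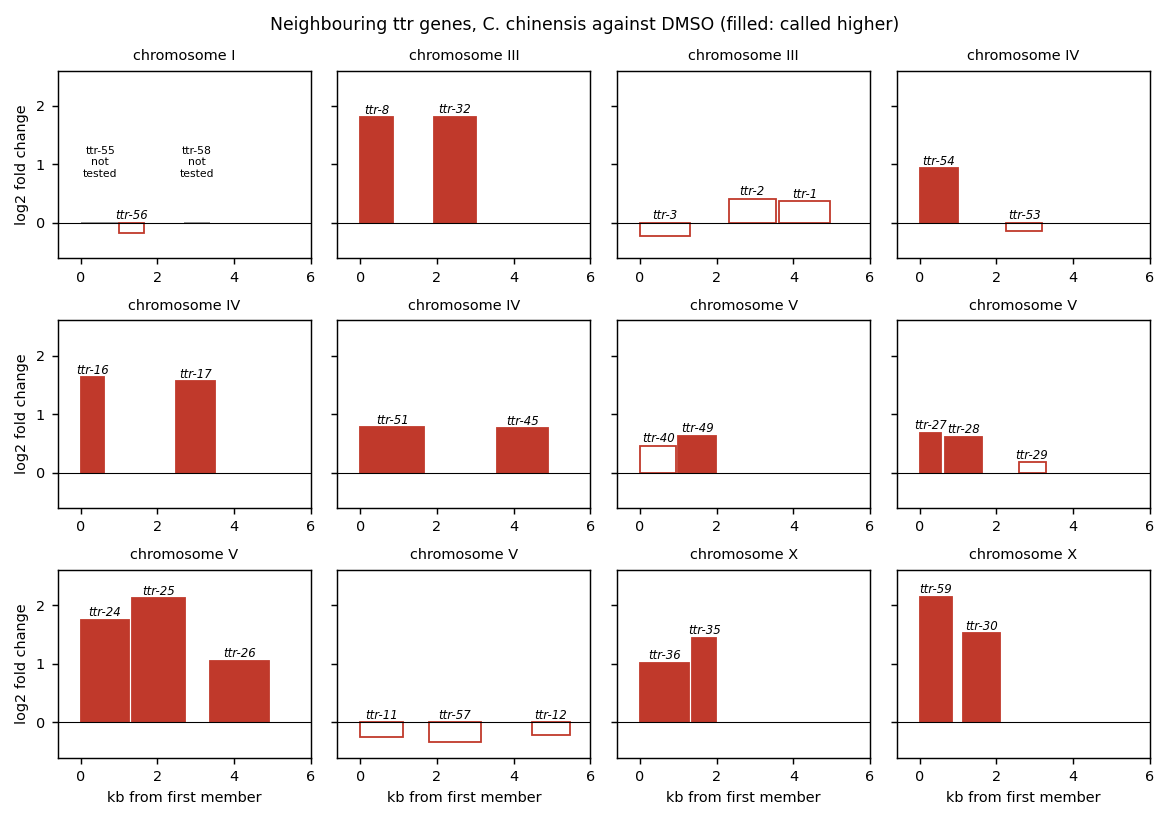
Log2 fold change with C. chinensis against DMSO (y axis) of ttr genes with another ttr gene within 5 kb, drawn at their distance in kb from the first member (x axis) with the bar as wide as the gene and filled where called higher. In 6 of the 12 groups all tested members are filled, and ttr-54 (0.93) stands beside ttr-53 (-0.14).

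TTR-52 acts in the removal of dying cells, so the genes of that pathway were also examined. Of 19 engulfment genes tested, 1 was called higher with C. chinensis and none lower, against 16.9% and 3.47% of all genes, and their median log2 fold change was -0.04, against -0.09. The called gene was nrf-5, which encodes a lipid-transfer protein that works with TTR-52. It was at 37.5 to 47.8 FPKM in DMSO, 74.3 to 106 with C. chinensis and 38.7 to 48.6 with E. ulmoides (0.81 ± 0.09 with C. chinensis, adjusted p = 1.64e-06). With no fold limit 7 were higher and 6 lower, against 30.2% and 37.2% of all genes, and with E. ulmoides limma called none, while 4 had an unadjusted p under 0.05, against 23.3% of all genes. The shares with no fold limit were near those of all genes. Between the extracts nrf-5 (0.67 ± 0.09) and the integrin gene ina-1 (0.60 ± 0.07) were called higher with C. chinensis and the adaptor gene ced-2 lower (-0.66 ± 0.07). Of 2 chosen transthyretin-like enzyme genes outside the ttr names, R09H10.3 was at 4.25 to 6.62 FPKM in DMSO and 9.52 to 14.3 with C. chinensis (1.11 ± 0.12, adjusted p = 1.14e-06), while ZK697.8 stayed under 1 FPKM in every library.

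With C. chinensis, markers of several tissues rose, as did most ttr genes. All marker sums are of unscaled FPKM, while the calls rest on scaled FPKM. The sums follow their most abundant genes, so they do not show how most markers changed. In DMSO the neuron marker snb-1 averaged 313 FPKM, the intestine marker act-5 76.05, and the muscle markers act-4 and lev-11 148 and 126. Of the hypodermis markers, nhr-23 averaged 42.05 in DMSO and 37.9 with C. chinensis, while col-19 went from 2.57 to 18.2 and elt-3 from 10.1 to 22.8. The scale factors were 1.06 to 1.16 with C. chinensis and 0.87 to 0.91 with E. ulmoides, so scaled sums are lower with C. chinensis and higher with E. ulmoides. The summed FPKM of 9 intestine markers ranged from 117 to 157 in DMSO, from 178 to 242 with C. chinensis and from 93.9 to 113 with E. ulmoides. That of 9 body wall muscle markers ranged from 285 to 355, from 512 to 725 and from 308 to 377. The 9 hypodermis markers summed to 51.7 to 65.1, 70.4 to 107.9 and 47.2 to 51.9 FPKM, although bli-1, dpy-13, dpy-7 and rol-6 stayed under 1 FPKM everywhere. With C. chinensis 2 of 9 intestine markers, 6 of 9 muscle markers, 3 of 4 tested hypodermis markers, 1 of 10 neuron markers, 1 of 4 tested glia markers and 0 of 5 tested pharynx markers were called higher, against 16.9% of all genes. Of the pharynx markers 4 had an unadjusted p under 0.05, against 70.1% of all genes. With no fold limit 9 of 9 intestine, 9 of 9 muscle, 3 of 4 hypodermis, 4 of 5 pharynx, 8 of 10 neuron and 1 of 4 glia markers were higher, against 30.2% of all genes. The remaining tested hypodermis marker, nhr-23, was lower (-0.31 ± 0.09, adjusted p = 0.00436, under the fold limit). The 10 germline markers summed to 1780 to 1840 FPKM in DMSO, 1301 to 1590 with C. chinensis and 1577 to 1845 with E. ulmoides. With C. chinensis 1 was called lower, against 3.47% of all genes, and all 10 were lower with no fold limit, against 37.2% of all genes. The summed ranges in DMSO, with C. chinensis and with E. ulmoides were 405 to 433, 547.7 to 636.7 and 386 to 437.5 FPKM for neuron markers, 42.3 to 50.1, 62.4 to 84.1 and 34.6 to 36.98 for pharynx markers, 3.86 to 5.18, 6.01 to 7.95 and 3.12 to 4.63 for 6 glia markers, 4573 to 5064, 5701 to 7140 and 4279 to 5713 for oocyte markers, and 511.6 to 575.8, 432.6 to 754.8 and 434.9 to 558 for sperm markers. The sum of the oocyte markers was raised by perm-4 (2225 to 3443 FPKM on average from DMSO to C. chinensis) and perm-2 (1552 to 2098), while the median log2 fold change of the 10 was -0.38 and 7 were lower with no fold limit, against 37.2% of all genes. Among the 10 oocyte markers 2 were called lower, and of 8 sperm markers none was, against 3.47% of all genes. Of the sperm markers 1 had an unadjusted p under 0.05, against 70.1% of all genes. With E. ulmoides limma called none of the markers, against 1.11% of all genes higher and 0.109% lower. Their median log2 fold change with E. ulmoides was -0.18 for intestine, -0.30 for pharynx, 0.13 for muscle and 0.21 for hypodermis markers, against 0.07 over all genes. For neuron, glia, germline, oocyte and sperm markers it was -0.02, -0.07, 0.13, 0.04 and -0.06. The part of these marker shifts in the ttr result was not tested.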

How the data were processed

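RNA from whole worms was sequenced in 15 libraries of 5 per group, and the deposited values are FPKM per gene, made by the authors after alignment with HISAT2 (version not given in the sources used here) to WBcel235; the counting tool and annotation release are not given in the sources used here. FPKM are scaled to the fragments of each library, so a gene's value also depends on the other genes. All 26686 genes above 0 gave whole fragments within 0.0001 with 1 length per gene. For 10628 of them this was the annotated exon length. For the others the length was searched to give whole fragments, so their fit is not a check. The library totals of 37920765 to 87238546 fragments were inferred from the FPKM, and they limit precision for members under 1 FPKM. For each library the smallest step between the FPKM of very short genes was taken as 1 fragment. The fragment numbers of single genes rest on these totals. Every column was mapped to a sample by its label.

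FPKM were rescaled with an unweighted trimmed mean of M (30% and 5% trims, on tested genes), and log2(scaled FPKM + 0.5) was fitted for all 13743 tested genes and all 15 libraries in limma 3.58.1 (trended variance, R 4.3.3) with Benjamini-Hochberg adjustment, as the unit is not counts. The steps were tested on simulated data. Other scalings, pseudocounts, filters, blocks, tests and left-out libraries were tried, of which 2 scalings were chosen after seeing the data.

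Per-library values were given for members with a described role, the 10 largest rises with C. chinensis, calls with E. ulmoides, the 5 highest in DMSO and the 5 nearest to 0; ttr-3, ttr-23, ttr-50 and the oocyte markers perm-2 and perm-4 were added after their values were seen. For gene lists, up to 4 called members were to be named. The members and lists were chosen with earlier results of these data known. Libraries of a group are labelled as biological replicates. Figures were drawn with matplotlib 3.10.9.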

Additional observations from a re-analysis of the deposited data

Results flagged for a closer look

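In 4 of the 72 groups of 5 libraries examined (24 members with per-library values in 3 groups), a library lay far from the others, where about 1 in 20, or 3.6 groups, would by chance. ttr-4 had 19.4 FPKM in DMSO replicate 4, against 5.72 to 7.66 in the other DMSO libraries, and 21.7 FPKM in E. ulmoides replicate 1, against 3.69 to 5.11. ttr-32 had 18.3 FPKM in DMSO replicate 2, against 9.57 to 11.2. ttr-9 had 11.3 FPKM in C. chinensis replicate 3, against 5.38 to 6.45.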

How the results depend on the processing

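The number of ttr genes called higher with C. chinensis, 34, lay between 27 and 39 under the other settings and between 32 and 36 with a library left out, and 26 of the 34 calls were kept in every setting. The lower value of 27 came from testing only genes with a mean FPKM of at least 5. That filter left 40 ttr genes tested, against 54 in the main setting, so the lower count is not a lower share. The calls of ttr-7, ttr-10, ttr-38 and ttr-39 counted as not kept because that filter left these genes untested. The value of 39 came from dropping the fold limit. With no fold limit 3 were lower with C. chinensis against DMSO and 2 against E. ulmoides. Against E. ulmoides the 29 higher calls lay between 24 and 39, and between 27 and 33 with a library left out. The 8 calls with E. ulmoides against DMSO became 1 without scaling, 5 with median-of-ratios scaling, 0 after quantile normalization, 0 with no filter, 1 under the stricter filter (mean FPKM of at least 5), 0 with the code number of the labels as a block, 5 in voom, 0 in the exact Wilcoxon test, 15 with no fold limit, 4 with the trimmed mean over all genes and 3 with DMSO replicate 2 as its reference, and 1 to 8 with a library left out. Lower calls, 0 at first, became 2 without scaling, 1 under the stricter filter, 2 with no fold limit, 1 with DMSO replicate 2 as the reference and 0 to 3 with a library left out. Without scaling they were ttr-21 and ttr-23, and ttr-23 was the lower call under the stricter filter and with DMSO replicate 2 as the reference. Over all genes the 153 higher calls with E. ulmoides became 87 with median-of-ratios scaling, 3 with no filter and 19 under the stricter filter. They became 1 with the code number block, 0 in the exact Wilcoxon test, 60 with the trimmed mean over all genes and 43 with DMSO replicate 2 as its reference. The code number block takes out E. ulmoides replicate 1 and DMSO replicate 3, which share their code number with no other library. No ttr call with E. ulmoides was kept in every setting, and none could be, as the exact Wilcoxon test called no gene. The cause was not tested.

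Changes near 0 turned sign. For ttr-21 with C. chinensis they were 0.14 without scaling, 0.14 under the stricter filter, 0.0041 with the code number block, 0.032 with DMSO replicate 2 as the reference, and -0.092 to 0.084 with a library left out. They were 0.0044 for ttr-13 and 0.0014 for ttr-9 without scaling. For ttr-53 they were 0.017 without scaling, 0.031 after quantile normalization and 0.011 under the stricter filter, and for ttr-4 -0.18 with the code number block and -0.36 to 0.55 with a library left out. ttr-11 differed between the extracts by -0.00123 after quantile normalization.

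Libraries with the same replicate number did not deviate together (15 pairs, r from -0.245 to 0.0612, and 1 of 15 libraries correlated best with its own number). With the replicate block, 34, 5 and 29 ttr genes were called higher with C. chinensis, with E. ulmoides and between the extracts. Over all genes the counts were 2325, 73 and 1805. Of the other named results, 525 values kept direction and call under another setting, 65 lost the call and 11 turned sign, and with a library left out 584 kept both, 56 lost the call, 1 gained it and 4 turned sign. Depth limits ttr-19, ttr-22, ttr-52, ttr-55 and ttr-58, which were too low to test.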
